A study of Arabidopsis thaliana and Marchantia polymorpha with 6 samples.

Results

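The 10 genes described here make, move or control anthocyanins, the red to purple pigments of Arabidopsis thaliana. DFR, LDOX and UF3GT encode enzymes of pigment synthesis and decoration, GSTF12 is needed to bring the pigment into the vacuole, MYB75, MYB90, TT8, GL3 and EGL3 encode activators, and MYBL2 encodes a repressor. They were chosen by name from 27444 protein-coding genes on the 5 nuclear chromosomes. A symbol matched 9 of them, and MYB75 matched a synonym of a gene listed as PAP1. For each gene, binding events of 2 proteins were taken whose centre lay inside the gene or within 2000 bp of either end. This span is called the window of the gene.

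The study used DNA affinity purification sequencing (DAP-seq), in which a purified protein picks fragments out of naked genomic DNA. Recombinant AtPIF4 and AtHY5, made in Escherichia coli and held on amylose beads, were each offered DNA of Col-0 seedlings that were 10 days old, broken into pieces of 200 bp on average. The DNA carried no chromatin and no other plant protein was added, so the events show what DNA each protein can hold alone, not occupancy in a cell. Each protein has 1 library. The labels also describe an Arabidopsis input and 3 libraries of the liverwort Marchantia polymorpha (Tak-1 gemmalings), and none of these is used here.

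Anthocyanins are made from flavonoid precursors by a chain of enzymes. DFR reduces dihydroflavonols, LDOX (also called anthocyanidin synthase) oxidises the product to the coloured anthocyanidin, and glycosyltransferases attach sugars that stabilise it. UF3GT is a glycosyltransferase that extends a sugar already attached. The late enzyme genes are switched on by a complex of a MYB protein, a bHLH protein and the WD-repeat protein TTG1. HY5, a bZIP factor, promotes pigment accumulation in light, and PIF4, a bHLH factor, promotes elongation in shade and warmth.

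The AtPIF4 list holds 6699 events with scores from 79 to 61759 and the AtHY5 list holds 16825 events with scores from 59 to 150414.2. Each event is an interval of 200 bp with a score from the authors' caller, whose unit is not stated. Scores are therefore read only by their place within their own list, given below as the rank or as the percentage of the list with a lower score. Read depth is unknown, there are no replicates and no p-values are given. A gene without an event had none that passed the authors' calling, which does not show that the protein cannot bind there.

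The 10 genes differed in what they carried. AtPIF4 events lay at both DFR and UF3GT, at TT8 and at EGL3. AtHY5 events lay at those genes except EGL3, and also at GSTF12, MYB75, MYB90 and MYBL2. LDOX and GL3 had no event of either protein. In all, 4 of the 10 genes had an AtPIF4 event, while 31.5% of all protein-coding genes had one in the same window. For AtHY5 the count was 7 of 10, beside 59.9% of all genes. Events of both proteins lay at 3 of the 10, DFR, UF3GT and TT8, beside 25.2% of all genes. Among the 19079 genes within the range of length of the 10, these shares were 32.5%, 61.9% and 26.3%. In this window the counts of the anthocyanin genes stand near these backgrounds. With 500 bp beyond either end in place of 2000 bp, the AtPIF4 count was still 4, beside 18.7% of all genes.

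**Figure D1:**
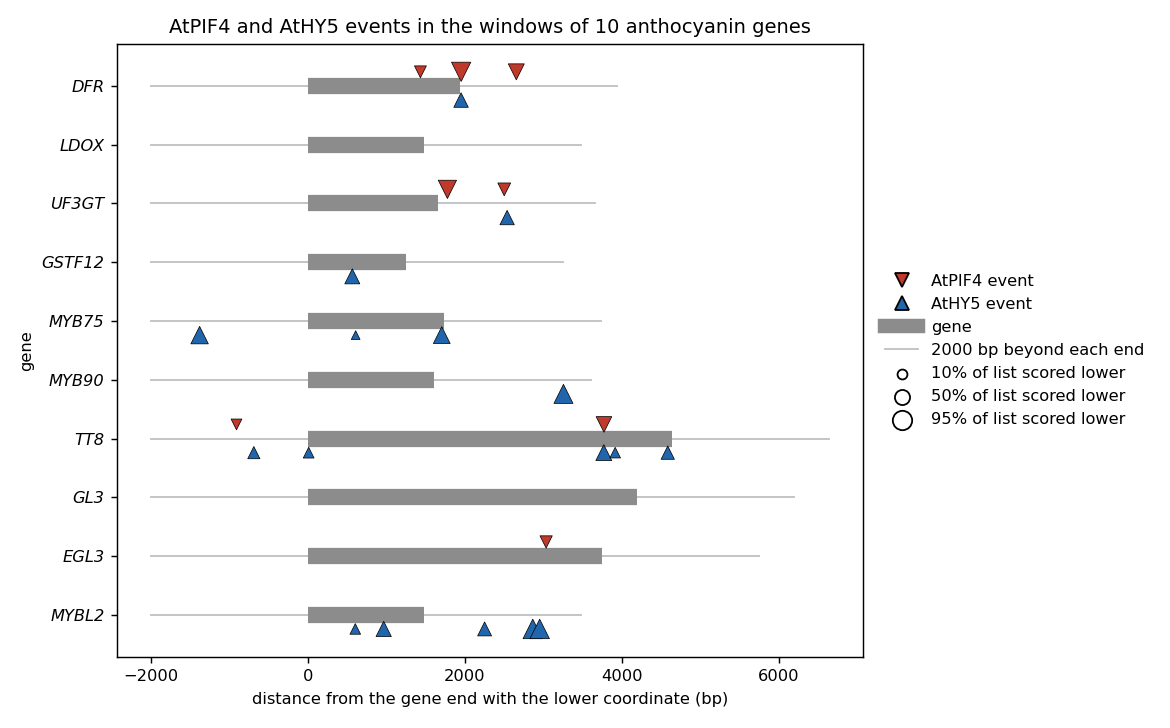
The horizontal axis gives the distance in bp from the gene end with the lower coordinate, the grey bars are the 10 genes and the thin lines reach 2000 bp beyond each end. Red triangles are the 8 AtPIF4 events and blue triangles the 17 AtHY5 events, and a larger triangle stands for a larger share of the list with a lower score. LDOX and GL3 carry none, and MYB75, MYB90, GSTF12 and MYBL2 carry AtHY5 events only.

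Among the enzyme genes, DFR had the strongest AtPIF4 event of the 10. It lay on chromosome 5 at 17165945 to 17166144 with a score of 457.8, rank 398 of 6699, above 94.1% of the list. Its centre fell 12 bp beyond the end of DFR with the higher coordinate. An AtHY5 event at 17165944 to 17166143 was centred 1 bp from it, 11 bp beyond the same end. That AtHY5 event was not a strong one, with a score of 108.6 that exceeded 44.5% of its list. At this position the AtPIF4 event thus stood near the top of its list and the AtHY5 event a little below the middle of its own.

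DFR had 2 more AtPIF4 events. One at 17165426 to 17165625, inside DFR and 507 bp from the same end, had a score of 113.2, above 23.5% of the list. The other at 17166648 to 17166847 had a score of 161, above 58.2%, and lay 715 bp beyond DFR, inside the neighbouring gene IPK1, which encodes an inositol phosphate kinase. Neither had an AtHY5 event closer than 518 bp. With 3 AtPIF4 events, DFR is among the 408 protein-coding genes (1.49%) that have 3 or more in their window, a comparison chosen after the counts were seen.

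LDOX, which acts directly after DFR in the pathway, had no event in its window. Its nearest AtHY5 event lay 2968 bp away with a score above 11.9% of the list, and its nearest AtPIF4 event 4701 bp away with a score above 28.5%. Of all protein-coding genes, 33.7% likewise had no event of either protein in the window.

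UF3GT adds xylose to the sugar already on the pigment. Its nearer AtPIF4 event, on chromosome 5 at 21938423 to 21938622, was centred 126 bp beyond the end with the higher coordinate. It had a score of 247, rank 1183, above 82.3% of the list, and its nearest AtHY5 event was 761 bp away. A second AtPIF4 event at 21939147 to 21939346 had a score of 121, above 30.3%. An AtHY5 event at 21939184 to 21939383, with a score of 107 and above 43.3% of its list, was centred 37 bp from it. This second position lies 850 to 887 bp beyond UF3GT and inside the next gene, AT5G54062. The stronger AtPIF4 event was therefore the closer one to UF3GT, and it stood without AtHY5.

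GSTF12, also known as TT19, encodes a glutathione S-transferase that carries anthocyanins and other flavonoids. It had 1 event, of AtHY5, inside the gene on chromosome 5 at 5658881 to 5659080. Its score of 116 exceeded 49.3% of the list, close to the middle. The nearest AtPIF4 event was 4506 bp beyond the gene. The GSTF12 gene model overlaps that of PSY, the phytoene synthase gene of carotenoid synthesis, but the event lay outside PSY.

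The MYB activators MYB75 and MYB90, also called PAP1 and PAP2, are close relatives that turn on the late pigment genes, and neither had an AtPIF4 event. MYB75 had 3 AtHY5 events on chromosome 1. The event at 21232074 to 21232273 lay 1382 bp beyond the end with the lower coordinate, with a score of 184 above 73.6% of the list. The event at 21235160 to 21235359 lay inside the gene, 33 bp from the other end, with a score of 156 above 66.4%. The weakest, at 21234063 to 21234262 within the gene, had a score of 62.2 and exceeded 3.27% of the list. None of the 3 events lay in the body of another protein-coding gene. Of all genes, 11.2% had 3 or more AtHY5 events in the window. The nearest AtPIF4 event lay 17525 bp from MYB75, the longest such distance of the 10, and 14.3% of all genes were at least as far from one.

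MYB90 had a single AtHY5 event, at 24767097 to 24767296 on chromosome 1, 1655 bp beyond the end with the higher coordinate and outside any protein-coding gene. Its score of 368 ranked 1500 of 16825, above 91.1% of the list. It was the farthest from its gene of all the events in the windows of the 10 genes. Just outside the edge of the window lay an AtPIF4 event 2133 bp from MYBL2, with a score of 117, and an AtHY5 event 2217 bp from GL3, with a score of 67. The AtHY5 events of the related pair thus differed in number and place, with 2 of the 3 of MYB75 inside the gene and the one of MYB90 well outside it.

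**Figure D2:**
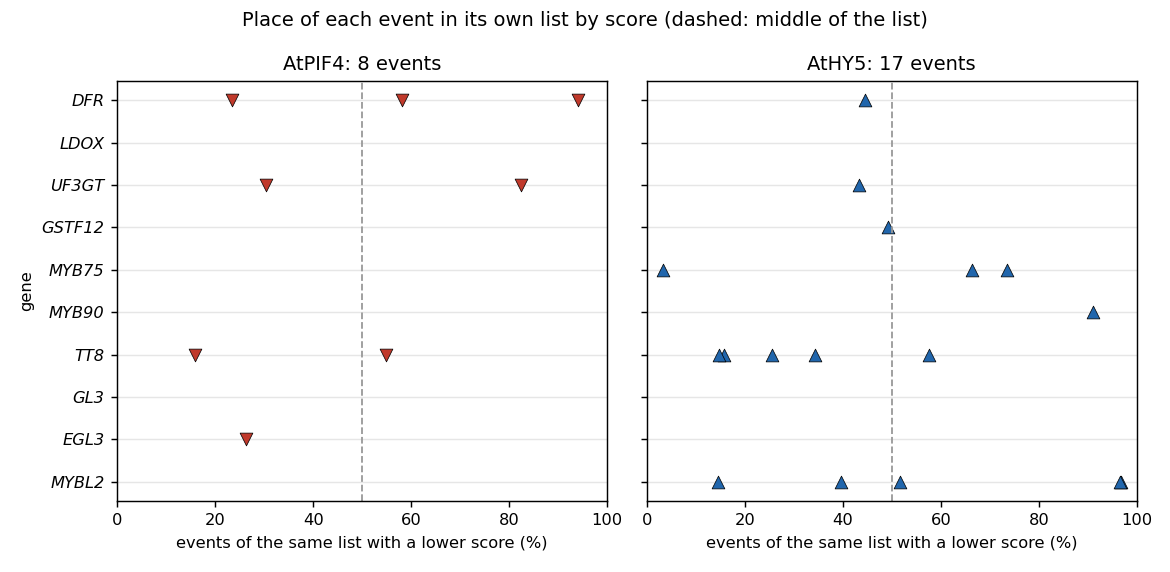
The horizontal axis gives, for each event, the percentage of events in the same list that had a lower score, with AtPIF4 on the left and AtHY5 on the right, and each row is a gene. The dashed line is the middle of the list. The event of DFR at 94.1% leads the AtPIF4 panel, and those of MYBL2 at 96.8% and 96.5% and of MYB90 at 91.1% lead the AtHY5 panel.

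The bHLH partners of the MYB proteins also differed among themselves. TT8, which is also needed for tannins of the seed coat, had 5 AtHY5 and 2 AtPIF4 events on chromosome 4. The AtPIF4 event at 6185553 to 6185752 and the AtHY5 event at 6185551 to 6185750 were centred 2 bp apart, inside TT8 and 871 to 873 bp from its end with the higher coordinate. Their scores of 154 and 131.1 exceeded 54.9% and 57.5% of their lists. Both lay a little above the middle, unlike the pair at DFR.

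The other AtHY5 events at TT8 were weaker. Those inside the gene had scores of 74.5, 73.9 and 96, above 15.7%, 14.7% and 34.4% of the list, and one of these was centred 145 bp from the AtHY5 event of the pair. The AtHY5 event 691 bp beyond the end with the lower coordinate had a score of 84.6, above 25.6%. The AtPIF4 event beyond that end lay 221 bp from it with a score of 104, above 15.8%. TT8 is the longest of the 10 genes at 4643 bp, and it had 0.579 AtHY5 events per kb of its window.

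GL3 and EGL3 act partly in place of each other, in pigmentation as in the making of leaf hairs. EGL3 had 1 AtPIF4 event inside the gene, on chromosome 1 at 23602348 to 23602547, with a score of 117 above 26.2% of the list. Its nearest AtHY5 event was 2619 bp beyond the gene. An AtPIF4 event with no AtHY5 event in the window is a less common state, seen in 6.36% of all protein-coding genes, whereas 34.8% had AtHY5 alone. GL3 had no event, and its nearest AtPIF4 event lay 4137 bp away. At 4198 bp it is longer than each of the other genes except TT8.

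MYBL2 encodes a MYB-related protein that represses pigment genes by binding the bHLH partners. It had 5 AtHY5 events on chromosome 1 and no AtPIF4 event. The strongest, at 26797817 to 26798016, had a score of 663.3 and ranked 541 of 16825, above 96.8% of the list. A neighbour at 26797905 to 26798104 had a score of 626.7, rank 596, above 96.5%. Their centres were 88 bp apart, so the intervals overlap. They lay 1384 and 1472 bp beyond MYBL2 and inside the adjacent gene LPR2, a multicopper oxidase gene of the root response to phosphate, as did another event with a score of 102, above 39.6%. Inside MYBL2 itself lay events with scores of 73.3 and 119.7, above 14.5% and 51.6%. The strong events are therefore nearest to LPR2, and those within MYBL2 ranked near or below the middle of the list.

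With 5 AtHY5 events each, TT8 and MYBL2 are among the 334 protein-coding genes (1.22%) that have 5 or more, a threshold chosen after the counts were seen. That share is over genes of all lengths, and the window of TT8, at 8.64 kb, is the longest of the 10. Each count includes neighbouring events with overlapping intervals, centred 145 bp apart at TT8 and 88 bp apart at MYBL2. MYBL2 had the densest AtHY5 window of the 10, with 0.912 events per kb. Only 2 of its 5 events lay inside MYBL2, and the others lay inside LPR2.

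**Figure D3:**
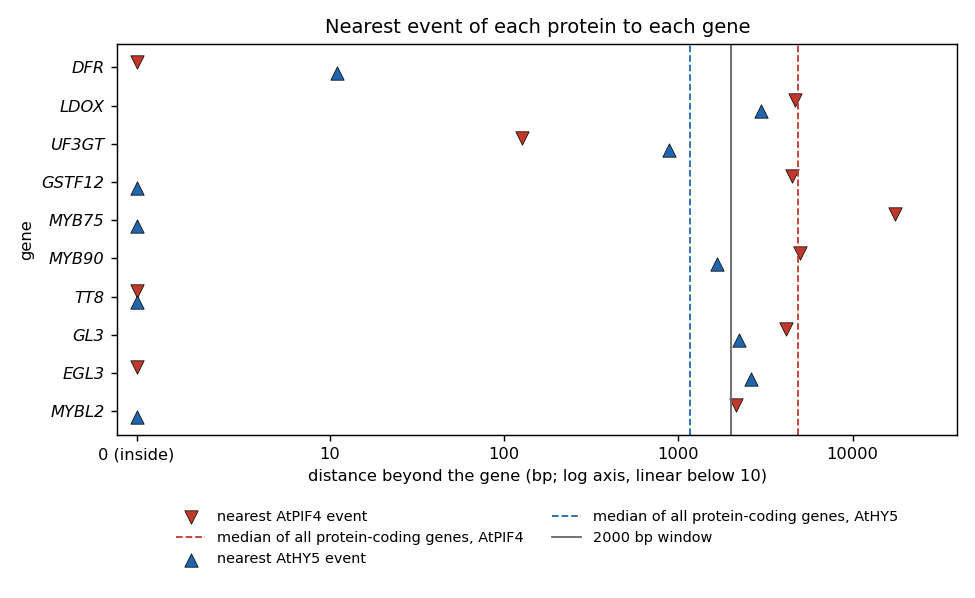
The horizontal axis gives the distance in bp from each gene to its nearest event of each protein, 0 where the event is inside, on a log axis that is linear below 10. Dashed lines are the medians of all protein-coding genes, 4888 bp for AtPIF4 and 1165 bp for AtHY5, and the grey line is the 2000 bp edge. AtPIF4 events lie inside DFR, TT8 and EGL3, and AtHY5 events inside GSTF12, MYB75, TT8 and MYBL2.

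Across the 10 windows, 63.7 kb in sum, there were 8 AtPIF4 and 17 AtHY5 events. This is 0.126 AtPIF4 events per kb, beside 0.0637 over the windows of all protein-coding genes. For AtHY5 it is 0.267 per kb, beside 0.165. TT8 and MYBL2 supply 10 of the 17 AtHY5 events, and DFR 3 of the 8 AtPIF4 events, so these densities rest on few genes. Of the AtPIF4 events, 3 lay inside a listed gene, 2 inside a neighbouring gene and 3 outside protein-coding genes. Of the AtHY5 events, 9 lay inside a listed gene, 4 inside a neighbouring gene and 4 outside. Above the list median stood 4 of the 8 AtPIF4 events and 7 of the 17 AtHY5 events, and the median event exceeded 42.6% of the AtPIF4 list and 44.5% of the AtHY5 list. Events that exceeded at least 90% of their list numbered 1 for AtPIF4, at DFR, and 3 for AtHY5, at MYB90 and MYBL2. Of the 10 genes, 1 had such an AtPIF4 event, beside 3.77% of all protein-coding genes, and 2 such an AtHY5 event, beside 8.98%. An AtPIF4 event inside the gene was found for 3 of the 10, beside 13.7%, and an AtHY5 event inside for 4, beside 30.3%.

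AtPIF4 and AtHY5 events are called coincident here when their centres lie within 100 bp. Such pairs lay in the windows of DFR, UF3GT and TT8, with centres 1, 37 and 2 bp apart, which is 3 of the 10 genes beside 16.7% of all protein-coding genes and 17.5% of those within their range of length. Pairs within 2 bp lay at 2 of the 10, DFR and TT8, beside 7.51%. Seen by event, 3 of the 8 AtPIF4 events had an AtHY5 partner, or 37.5%, beside 47.3% of the whole list. For AtHY5 it was 3 of 17, or 17.6%, beside 19.8%. Neither share stood above that of its list, over few events. Every gene among the 10 with events of both proteins also had a coincident pair, and each of these genes had at least 1 further AtPIF4 event that was not paired.

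**Figure D4:**
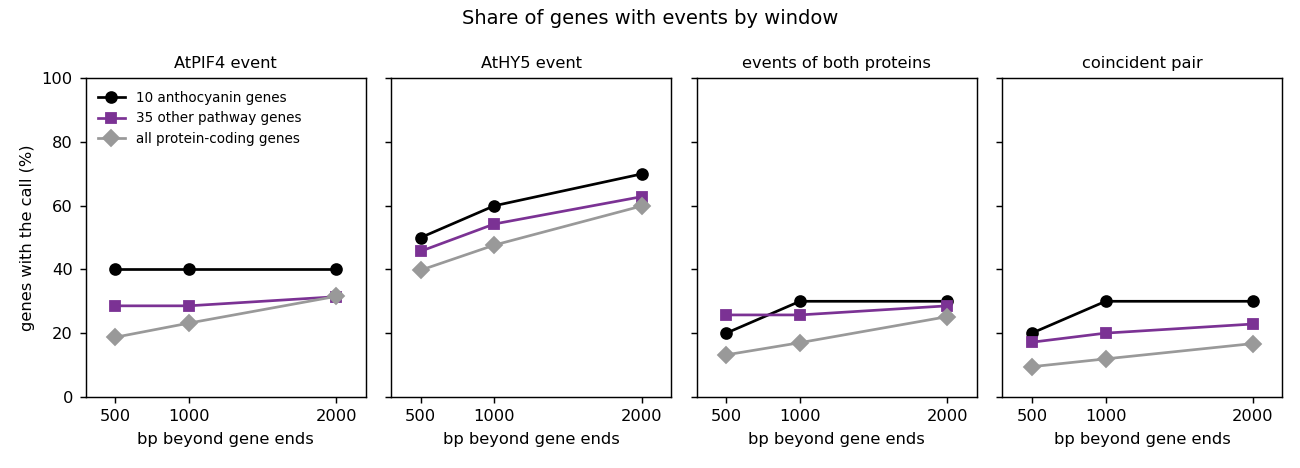
Each panel plots the percentage of genes with the call named above it, for windows that hold the gene body and 500, 1000 or 2000 bp beyond either end. Black circles are the 10 anthocyanin genes, purple squares the 35 other pathway genes and grey diamonds all 27444 protein-coding genes. Counts of the 10 genes with an AtPIF4 event stay at 4 in all 3 windows, while all genes go from 18.7% to 31.5%.

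The 4 genes with an AtPIF4 event had one within 500 bp or inside, and the count was 4 at 500, 1000 and 2000 bp, beside 18.7%, 23.1% and 31.5% of all genes. For AtHY5 the count was 5, 6 and 7, beside 39.8%, 47.7% and 59.9%. UF3GT is the gene that enters at 1000 bp and MYB90 the one that enters at 2000 bp. Events of both proteins lay at 2, 3 and 3 of the 10, beside 13.2%, 17.0% and 25.2%, and coincident pairs at 2, 3 and 3, beside 9.46%, 11.9% and 16.7%. With the events above the median score of their list alone, 3 of the 10 genes had an AtPIF4 event, beside 17.5% of all genes, and 4 an AtHY5 event, beside 37.2%. TT8 was then the only one of the 10 with both and with a coincident pair, states that 11.6% and 7.97% of all genes had.

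A list of 35 other genes of the flavonoid pathway shows the surroundings of the 10. It had an AtPIF4 event at 11, an AtHY5 event at 22, both at 10 and a coincident pair at 8. These are 31.4%, 62.9%, 28.6% and 22.9% of the list. In this window the first 3 shares stand near the 31.5%, 59.9% and 25.2% of all genes, and the last is beside 16.7%. Inside the gene, 10 of the 35 had an AtPIF4 event, beside 13.7% of all genes. In the flanks alone 4 had one, beside 21.3%. The genes with a coincident pair were CHS, F3'H, MYB11, MYB111, UGT78D2, MYB114, TT10 and CPC. The pair of UGT78D2 lay 842 and 891 bp beyond that gene, inside AT5G17040. The pair of CPC lay 1701 and 1703 bp beyond it, nearer to AT2G46420. With each event counted only for its nearest gene, 6 of the 35 had a pair, beside 9.52% of all genes. CHS, the entry enzyme of flavonoid synthesis, had 3 AtPIF4 events inside the gene, centred 72, 2 and 47 bp from AtHY5 events. Its strongest AtPIF4 event had a score of 322.4, above 89.2% of the list. MYB111, an activator of flavonol synthesis, also had 3 AtPIF4 events, each with an AtHY5 event at 1 to 52 bp. At both genes all AtPIF4 events were paired, beside 47.3% of the whole AtPIF4 list. TT10 also had 3 AtPIF4 events, with 1 paired at 95 bp and the others 312 and 2576 bp from an AtHY5 event. DFR was like TT10, with 1 of 3 paired. At MYB111, however, the AtPIF4 events with scores of 90 and 88 exceeded only 6.02% and 5.02% of the list. The one at 90 lay 1862 bp beyond the gene, nearer to AT5G49320.

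The highest AtPIF4 scores of that list were at MYB11, a flavonol regulator, with 357.3, at CHS with 322.4 and at MYB111 with 274, all below the 457.8 of DFR. The highest AtHY5 scores were 534 at MYB11, 271.4 at UGT78D2, which adds glucose to flavonoids, and 258.8 at CHS. That of MYB11 came from an event inside the neighbouring gene ATERDJ3B. That of UGT78D2 came from an event 891 bp beyond it, inside AT5G17040, while the AtHY5 event within UGT78D2 scored 242. The 2 strong AtHY5 events in the window of MYBL2 exceeded them all.

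The counts by role are given as a description beside the 31.5% (AtPIF4) and 59.9% (AtHY5) of all protein-coding genes, and the groups are too small to tell roles apart. The early enzymes CHS, CHI, F3H and F3'H had AtPIF4 events at 2 of 4 and AtHY5 events at 3 of 4. The flavonol regulators MYB11, MYB12 and MYB111 had AtHY5 events at 3 of 3 and AtPIF4 events at 2. The 7 genes of anthocyanin decoration had AtHY5 events at 4 and an AtPIF4 event at 1, UGT78D2. Among the 4 further regulators of anthocyanin, MYB114 had both, TTG1 had AtHY5 alone with a score of 91, and MYB113 and MYC1 had none. The 6 genes of proanthocyanidins, the tannins of the seed coat, had AtPIF4 events at 3 and AtHY5 events at 4. Of 7 repressors, 3 had an AtHY5 event (CPC, MYB4 and LBD37) and 1 an AtPIF4 event (CPC, paired at 2 bp). The pair of CPC is the one nearer to AT2G46420. The 3 phenylpropanoid genes had AtHY5 events at 2 and no AtPIF4 event, and FLS1, the flavonol synthase gene, had both without a coincident pair.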

How the data were processed

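Both Arabidopsis event lists were used as the authors deposited them. The score of an event was assigned by the authors' caller, GEM per the file headers. Trim Galore, Bowtie2 and the build TAIR10 are named, without versions, per the submitters' processing notes. Intervals are given 1-based, an event is placed by the centre its list names, and tied scores share the better rank. Genes came from a RefSeq table of TAIR10.1, a different name from the lists' build, so its coordinates are not printed. As a check, 63.1% of AtPIF4 and 65.3% of AtHY5 events lay inside protein-coding genes, but 55.3% to 57.9% after shifts of 1000 or 2000 bp either way. Strand and exons are absent from that table, so starts and ends of genes were not distinguished. Sequences were not used here, and planned promoter motif counts were not run.

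Counts were made in Python 3.11.15 with pandas 2.3.3, and the counting was tested on simulated data. An event may serve several genes. The genes named are the 10 and, of the pathway list, those with a coincident pair and the 3 with the highest score per protein; others were named after their values were seen. The genes and lists were chosen with earlier results of these data known, and no test was run. Alternatives were windows of 500 and 1000 bp, flanks without the gene body, events above the median score, any overlap of the interval, the nearest gene only, and coincidence within 20, 50 and 200 bp.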

Additional observations from a re-analysis of the deposited data

How the results depend on the processing

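Of 27 alternative values of the 4 counts (genes with an AtPIF4 event, an AtHY5 event, both, and a coincident pair), 3 moved by over 1.5 times. All 3 arose with events above the median score, where AtHY5 events lay at 4 of the 10 genes in place of 7, events of both proteins at 1 in place of 3, and a coincident pair at 1 in place of 3. That alternative leaves out the lower-scoring part of each list by construction. A fall from 3 to 2 does not exceed 1.5 times and is not among the 3. Coincident pairs fell to 2 with the 500 bp window (9.46% of all genes) and with flanks only (10.9%). They also fell to 2 with the nearest gene only (9.52%) and with coincidence within 20 bp (10.3%). Genes with both proteins fell to 2 with the 500 bp window (13.2%) and the nearest gene only (13.3%). No paired analysis was possible because each protein has 1 library. With 1 library per protein, an unknown depth and no input used here, neither the error of an event nor the background of a position is known.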

Other observations

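MYB113, MYB114 and MYB90 are related genes that stand side by side on chromosome 1, and their events differed. MYB113 had none. At MYB114 an AtHY5 event lay 30 bp beyond the end with the lower coordinate and an AtPIF4 event 33 bp from it, with scores of 60 and 127, above 0.844% and 35.6% of their lists. MYB90, 4987 bp from MYB114, had AtHY5 alone, at 368.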
